A study of Mus musculus with 19 samples.

Results

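Urolithin A (UA) is formed by the gut flora from the ellagitannins of pomegranates, walnuts and berries, and it is known for inducing mitophagy, the removal of damaged mitochondria by autophagy. The comparison described here sets the hippocampus of UA-treated APP/PS1 mice against that of wild-type (WT) littermates, and so gives what still set treated mice of an amyloid model apart from mice without the transgenes. It used 12 of the study's 19 arrays, chosen by title: 6 arrays of APP/PS1 mice on UA and 6 arrays of WT mice on vehicle. The APP/PS1 mice were of strain 004462 and carried mutant amyloid precursor protein and presenilin 1 transgenes, both driven in this strain by prion protein (Prnp) promoter sequence. They received UA in DMSO by gavage at 200 mg per kg per day from month 6 of age, the age at which plaques appear, until month 8, when tissue was taken. WT littermates of the same age received the DMSO vehicle in the same way, so all animals shared the gavage and the solvent. The remaining 7 arrays, of APP/PS1 mice on vehicle, entered the fit and are given beside the UA values where a reader needs to see how far a value lay from the untreated model. The labels name neither sex nor litter, and the array numbers match the animal numbers of the design, so each array was taken as 1 mouse.

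Microglia, the resident macrophages of the brain, sense lipids and amyloid through the receptor TREM2 and its signalling partner TYROBP (DAP12). Around plaques they lower part of their resting programme and switch on a disease-associated (DAM) programme of chemokines, integrins, lysosomal genes and lipid genes. Astrocytes near plaques become reactive and raise intermediate filament genes such as Gfap.

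In UA-treated APP/PS1 hippocampus, 23 genes were higher than in WT and 1 was lower (limma, adjusted p under 0.05), 0.0938% of the 25599 genes tested. Of these 24 genes 12 belonged to the gene lists described below: 8 to DAM microglia (Cst7, Itgax, Ccl4, Ccl6, Cd52, Trem2, Tyrobp and Lilrb4a), 2 to complement and Fc receptors (Ly86 and Laptm5), 1 to homeostatic microglia (Irf8) and 1 to reactive astrocytes (Aspg). Prnp rose at 1 of its 2 probes. All 23 higher genes also passed the test in APP/PS1 vehicle mice against the same WT arrays, and in each the UA mean lay between the WT mean and the vehicle mean. Between UA and vehicle mice themselves no gene passed, but 1621 did with a normexp background correction, 1466 of them lower in UA mice. Mitophagy, autophagy, mitochondrial and synapse lists held no gene that passed between UA and WT, a count that the low share over all genes would also give. With slide as a fixed block 4 of the 24 genes passed (Cst7, Itgax, Ccl6 and Prnp), though the UA arrays of slide 3 do not inform that difference. Without the 10 arrays rich in choroid plexus transcripts Cst7 alone passed.

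The 6 WT arrays lay on slide 1, and the UA arrays lay on slide 2 (3 arrays) and slide 3 (3 arrays), so no slide held arrays of both groups. Only the vehicle arrays, which lay on slides 1 and 2, join them in a fit with slide as a block. Slide 3 held UA arrays alone, so with slide as a fixed block those 3 arrays do not inform the difference from WT. Between 54.2% and 59.3% of probes were well above background on WT arrays and between 55.6% and 58.7% on UA arrays (exact permutation test, two-sided p = 0.866). The 75th percentile of the signal was 787 to 1199 intensity units on WT arrays and 616 to 938 on UA arrays, a log2 difference of -0.32 (exact permutation test, two-sided p = 0.0260, where 0.00216 is the smallest these groups allow). Levels below are log2 signal minus that percentile, which removes a shift common to all probes. Sex, read from Xist and Y-linked genes, was female on 1 of 6 arrays in each of the 2 groups and on 3 of 7 vehicle arrays. Markers of neurons, hippocampal principal cells, astrocytes, microglia and oligodendrocytes were well above background on all 12 arrays, as were all 6 choroid plexus markers. The mean level of 12 choroid plexus genes exceeded 2 on 4 of 6 UA arrays and on 1 of 6 WT arrays, and the part of this tissue in the differences was not tested beyond the values given with them.

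Prnp, whose promoter sequence drives the transgenes, was read as a possible check of the genotype labels. Its level was 6.70, 6.98 and 7.05 on the lowest, median and highest WT array, and 8.32, 8.53 and 8.999 on the UA arrays in the same order. The groups did not overlap. The difference was 1.65 (SE 0.10, limma adjusted p = 4.71e-08), a 3.15-fold rise, and APP/PS1 vehicle mice differed from WT by 1.67, so that UA and vehicle differed by -0.01 (SE 0.10, adjusted p = 0.960). The second Prnp probe differed by -0.12 (SE 0.11, adjusted p = 0.767), so the rise holds for the brighter probe alone. The position of each probe in relation to the transgenes is not given in the sources used here. Whether the brighter probe reads transgene transcripts was not tested, so its rise is a limited check of the labels. App differed by -0.25 at its brighter probe (SE 0.10, adjusted p = 0.502) and by 0.29 at the other (SE 0.23, adjusted p = 0.725), and checks nothing.

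Cst7 encodes cystatin F, an inhibitor of lysosomal cathepsins that is a hallmark of microglia around plaques, and it differed most. Its level was -5.26, -4.86 and -3.84 on the lowest, median and highest WT array and -0.09, 0.41 and 1.39 on the UA arrays. Every UA array lay far above every WT array. The difference was 5.23 (SE 0.26, limma adjusted p = 1.34e-09), or 37.5-fold. Only 2 of 6 WT arrays measured Cst7 well above background, and with the dim WT arrays raised to the lowest measurable signal the ratio was 31.0-fold. With a normexp background correction, which adds an offset to every signal, the difference shrank to 2.96. In vehicle mice the difference from WT was 6.18 (SE 0.25), and UA differed from vehicle by -0.95 (SE 0.25, adjusted p = 0.124).

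Itgax, which encodes CD11c, an integrin subunit carried by dendritic cells and by microglia at plaques, had levels of -4.70, -4.33 and -4.13 in WT and of -2.31, -2.07 and -1.28 in UA mice. It rose by 2.48 (SE 0.18, limma adjusted p = 3.93e-07), and 4 of 6 WT arrays measured it well above background. With the other WT arrays raised to the lowest measurable signal the ratio was 5.32-fold, and with normexp the difference was 0.98. Its vehicle difference from WT was 3.11 (SE 0.17).

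The upstream sequences of genes that rose together are shown for Cst7, Itgax, Slamf9 and Bcl2a1d, because these 4 rose and carry the hexamer GGAAGT, the core that factors of the ETS family such as the macrophage factor PU.1 recognise. Each run is the 250 bases before the annotated start in RefSeq's GRCm38.p6 assembly, 5′ to 3′ on the strand of the gene, with the hexamer or its reverse complement in capitals. The windows are chr2:150570165-150570414 (plus strand) for Cst7, chr7:128129300-128129549 (plus) for Itgax, chr1:172475110-172475359 (plus) for Slamf9 and chr9:88731851-88732100 (minus) for Bcl2a1d.
Cst7: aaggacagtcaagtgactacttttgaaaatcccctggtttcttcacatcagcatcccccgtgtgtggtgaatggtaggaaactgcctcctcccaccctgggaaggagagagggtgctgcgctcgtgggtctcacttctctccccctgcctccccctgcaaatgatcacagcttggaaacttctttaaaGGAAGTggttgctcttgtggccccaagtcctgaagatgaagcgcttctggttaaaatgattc
Itgax: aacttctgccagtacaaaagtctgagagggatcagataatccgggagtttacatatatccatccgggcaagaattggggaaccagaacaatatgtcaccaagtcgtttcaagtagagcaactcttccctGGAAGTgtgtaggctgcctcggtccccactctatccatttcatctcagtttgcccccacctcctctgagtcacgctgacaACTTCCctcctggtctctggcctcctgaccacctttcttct
Slamf9: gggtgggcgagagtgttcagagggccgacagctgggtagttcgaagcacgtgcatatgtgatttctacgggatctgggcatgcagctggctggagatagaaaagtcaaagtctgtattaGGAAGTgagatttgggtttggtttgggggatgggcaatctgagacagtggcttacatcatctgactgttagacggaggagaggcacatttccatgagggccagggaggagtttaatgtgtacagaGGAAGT
Bcl2a1d: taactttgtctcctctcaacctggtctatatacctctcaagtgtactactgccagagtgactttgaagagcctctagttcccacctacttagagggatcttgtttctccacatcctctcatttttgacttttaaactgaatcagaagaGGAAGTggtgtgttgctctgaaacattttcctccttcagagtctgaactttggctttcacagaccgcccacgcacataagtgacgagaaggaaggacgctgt
In Cst7 the hexamer begins 62 bases before the start. Itgax carries it at 121 bases and, on the opposite strand, at 41 bases, and Slamf9 carries it at 131 and at 6 bases. In Bcl2a1d it begins 102 bases before the start. There, and in the Slamf9 copy at 6 bases, it is part of GAGGAAGT, a longer form of the same core. Of the 23 genes that rose, 16 had a RefSeq window, and 9 of the 16 held GGAAGT on either strand of any window. Over all 32851 windows of that length, counted singly and not by gene, the share was 19.7%. A gene with several windows has more chances of a match, so the gene count and the window share differ in unit. The longer GAGGAAGT, which always contains the hexamer, was in 3 of the 16 genes and in 2.44% of all windows, counted in the same ways. Both gene counts include the near-identical copies Bcl2a1c and Bcl2a1d. These are matches of letters and no measure of binding.

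**Figure D1:**
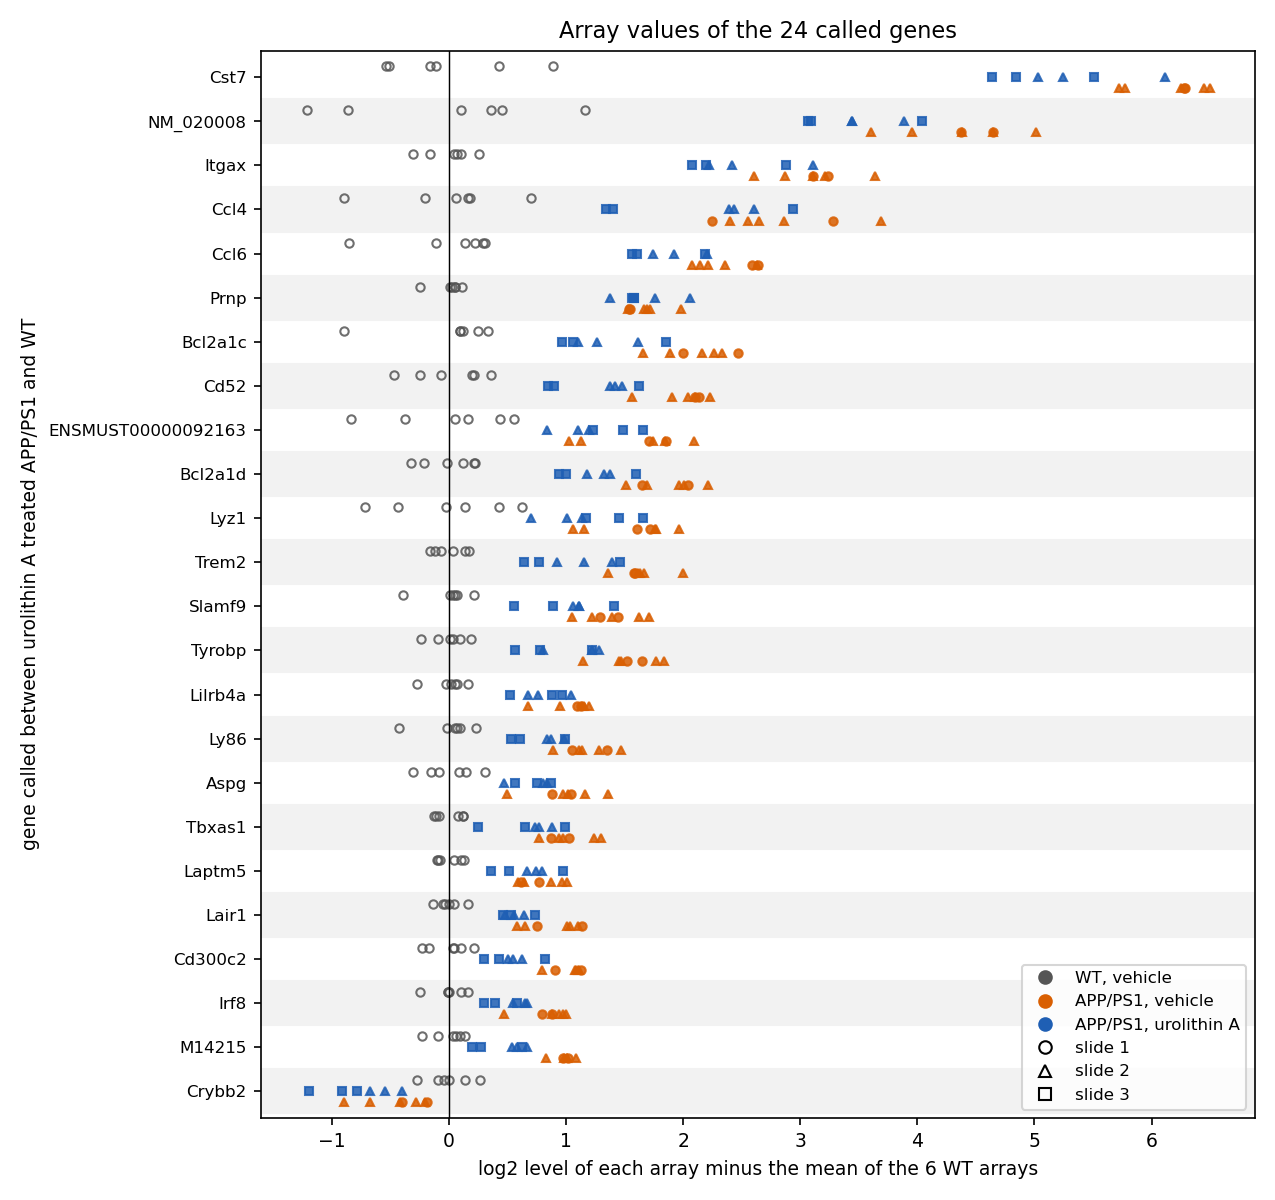
Level of the 24 genes called between UA and WT on each array, as log2 level minus the mean of the 6 WT arrays (horizontal axis), 1 gene per line. Open grey points are WT, orange points APP/PS1 vehicle and blue points APP/PS1 on UA, and the symbol gives the slide. No blue point overlaps the range of the grey points of its gene, and Cst7 stands farthest to the right.

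Of the 26 measured genes of the DAM list 8 rose and none fell, against 0.0898% of all genes called higher. Genes were matched to lists by symbol, and Clec7a of the DAM list had no probe under its symbol. The list's median difference was 0.48 beside -0.02 over all genes tested, and 25 of its 26 members lay above 0. The list was put together from the known programme with earlier results of these arrays in view, so its direction is not independent evidence. Its mean level was 1.30 ± 0.17 on WT arrays (SD, n = 6), 2.14 ± 0.15 on UA arrays (n = 6) and 2.40 ± 0.15 on vehicle arrays (n = 7). UA arrays ran from 1.95 to 2.33 and WT arrays from 1.08 to 1.58, without overlap. Such a shift in bulk tissue cannot separate more cells of a type from more RNA per cell. With slide as a fixed block 3 members passed (median 0.64), and without the arrays rich in choroid plexus transcripts 1 passed (median 0.45).

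Among DAM receptors and integrins 3 of 8 passed. Trem2, the lipid-sensing receptor of microglia, was at 1.93, 2.07 and 2.27 in WT and at 2.73, 3.13 and 3.55 in UA mice, with no overlap. It rose 2.08-fold (log2 difference 1.06, SE 0.13, limma adjusted p = 0.000733). Tyrobp, which carries the signal of TREM2 into the cell, was at 1.55, 1.81 and 1.97 in WT and at 2.35, 2.79 and 3.06 in UA mice, and rose 1.97-fold (0.98, SE 0.13, adjusted p = 0.00185). Both were lower than in vehicle mice by about the same amount, -0.58 (SE 0.13) for Trem2 and -0.57 (SE 0.13) for Tyrobp, without passing (adjusted p = 0.0946 and 0.0959), though both passed with normexp.

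Among DAM chemokines and surface glycoproteins 4 of 7 passed. Ccl6, a myeloid CC chemokine, moved from -2.24, -1.21 and -1.08 in WT to 0.18, 0.44 and 0.82 in UA mice, a 3.66-fold rise (1.87, SE 0.18, limma adjusted p = 2.67e-05). Ccl4, the macrophage inflammatory protein 1 beta gene, was at -5.48, -4.48 and -3.89 in WT, where 2 of 6 arrays were well above background, and at -3.24, -2.17 and -1.65 in UA mice. Its rise of 2.19 (SE 0.31, adjusted p = 0.00265) came to 4.30-fold with the dim WT arrays raised to the lowest measurable signal, and its second probe gave 1.93 (SE 0.29). With normexp the difference was 0.71 and did not pass. The surface glycoprotein gene Cd52 went from -1.03, -0.49 and -0.20 to 0.29, 0.84 and 1.06 (1.27, SE 0.16, adjusted p = 0.000733). Lilrb4a, an inhibitory receptor gene of myeloid cells, rose by 0.81 (SE 0.10, adjusted p = 0.000896), and by 0.47 with normexp, where it did not pass. None of these 4 genes overlapped between the groups.

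Among lysosomal and lipid genes of the DAM list Cst7 alone passed of 11, with a median of 0.37. Ctsd, the gene of the lysosomal protease cathepsin D, differed by 0.57 (SE 0.12, adjusted p = 0.0803), and Cd68, a lysosomal membrane gene of macrophages, by 0.48 (SE 0.11, adjusted p = 0.0994). Both had passed in vehicle mice, at 1.02 and 0.80.

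Several further genes of myeloid cells rose that no DAM list holds. The anti-apoptotic gene Bcl2a1d was at -1.87, -1.50 and -1.33 in WT and at -0.60, -0.29 and 0.05 in UA mice, a rise of 1.24 (SE 0.14, limma adjusted p = 0.000175). Its paralog Bcl2a1c cleared the background limit on no WT array and on 5 of 6 UA arrays, and was at least 1.49-fold higher on this scale (measured difference 1.31, adjusted p = 0.00597). With normexp its difference was 0.11 and with the signal before dye normalization 0.26, and neither passed. The Bcl2a1 genes are near-identical copies, and probes may not tell them apart. Slamf9, a receptor gene of the SLAM family, rose by 1.02 (SE 0.14, adjusted p = 0.00133) and by 0.60 with normexp. The lysozyme gene Lyz1, which has a close copy in Lyz2, rose by 1.19 (SE 0.22, adjusted p = 0.0406).

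Tbxas1, the thromboxane synthase gene, Lair1, a collagen-binding inhibitory receptor gene, and Cd300c2, a myeloid receptor gene, rose by 0.71, 0.57 and 0.54 (limma adjusted p = 0.0100, 0.0222 and 0.0297). With normexp Tbxas1 stood at 0.45 and did not pass. Tbxas1 and Lair1, like Lilrb4a, were named after their values were seen. The files pair 3 further called probes with an accession and no symbol, so these could not be matched to any list. Whether any of them belongs to Clec7a of the DAM list was not checked. NM_020008 rose by 3.49 (SE 0.33, adjusted p = 2.48e-05), from -5.17, -3.72 and -2.79 in WT to -0.88, -0.51 and 0.09 in UA mice, the second largest rise among the 24 called genes. Its signal cleared background on 4 of 6 WT arrays. With the others raised to the lowest measurable signal the ratio was 11.2-fold, and with normexp the difference was 1.91. ENSMUST00000092163 rose by 1.25 (SE 0.23, adjusted p = 0.0350) and M14215 by 0.48 (SE 0.09, adjusted p = 0.0350).

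Of 17 measured genes of the complement and Fc receptor list 2 rose and none fell, beside 0.0898% of all genes called higher. The median was 0.42 and 16 of 17 lay above 0. Ly86, whose product MD-1 pairs with a toll-like receptor relative, rose from 1.69, 2.17 and 2.34 to 2.65, 2.97 and 3.11 (0.80, SE 0.12, limma adjusted p = 0.00400). Laptm5, a lysosomal membrane gene of blood-derived and microglial cells, rose from 0.47, 0.56 and 0.70 to 0.94, 1.29 and 1.55 (0.68, SE 0.10, adjusted p = 0.00495). Both are listed among the Fc receptor and signalling genes, of which 2 of 7 passed, and neither encodes a complement component or an Fc receptor. With slide as a fixed block neither passed. The count was 4 without UA replicate 5 or without WT replicate 1.

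No complement component passed (0 of 5, median 0.42). C1qa, which encodes a chain of the initiator of the classical pathway, was at 1.58, 1.77 and 1.89 in WT and at 1.90, 2.19 and 2.47 in UA mice, without overlap, and differed by 0.42 (SE 0.09, limma adjusted p = 0.0815). C4b, the next component of that pathway, differed by 0.61 (SE 0.15, adjusted p = 0.152). Fcer1g, the common gamma chain of Fc receptors, differed by 0.48 (SE 0.10, adjusted p = 0.0619). In vehicle mice 13 of the 17 genes were called higher, beside 2.69% of all genes, and the median was 0.88. There C1qa stood at 0.86, C4b at 1.22 and Fcer1g at 0.96, and against vehicle C1qa differed by -0.44 (SE 0.09, adjusted p = 0.0853) and Fcer1g by -0.48 (SE 0.09, adjusted p = 0.0853).

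Of 14 homeostatic microglia genes 1 rose and none fell, beside 0.0898% of all genes called higher, with a median of 0.32. It was Irf8, a transcription factor that myeloid cells need, which went from -0.70, -0.45 and -0.29 to -0.15, 0.12 and 0.22 (0.52, SE 0.09, limma adjusted p = 0.0350). Csf1r, the receptor gene microglia need to survive, differed by 0.30 (SE 0.09, limma adjusted p = 0.391). The count of members called was 2 without UA replicate 5, and 0 without any 1 of UA replicates 1 to 4 or of WT replicates 2, 3, 4 and 6. In vehicle mice 8 of the 14 were called higher, beside 2.69% of all genes, with a median of 0.52.

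Other immune lists held no gene that passed. All 5 NADPH oxidase subunit genes, which make the superoxide of phagocytes, lay above WT, with a median of 0.42. Ncf1, a cytosolic subunit gene, stood at 0.45 (SE 0.09, limma adjusted p = 0.0685). All 16 antigen presentation genes also lay above WT (median 0.36), 0.60 being the median of 6 class II genes and 0.24 that of 10 class I and processing genes. The immunoproteasome genes Psmb9 and Psmb8 stood at 0.34 (adjusted p = 0.343) and 0.37 (adjusted p = 0.404). Of 15 interferon response genes 12 lay above WT (median 0.29), with Ifi27l2a at 1.09 (adjusted p = 0.351) and Bst2 at 0.76 (adjusted p = 0.452). Of 15 toll-like receptor and inflammasome genes 10 did (median 0.16), with Tlr3 at 0.46 (adjusted p = 0.0994) and Tlr2 at 0.82 (adjusted p = 0.175).

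Of 19 reactive astrocyte genes 1 rose and none fell, beside 0.0898% of all genes called higher. The median was 0.30 and 17 lay above 0. Aspg, an asparaginase gene that reactive astrocytes raise, went from -0.73, -0.42 and -0.11 to 0.05, 0.35 and 0.45 (0.72, SE 0.13, limma adjusted p = 0.0340). Gfap, the intermediate filament gene of astrocytes, was at 2.66, 3.09 and 3.20 in WT and at 3.31, 3.64 and 3.92 in UA mice. Its groups did not overlap, and its difference of 0.60 (SE 0.12, adjusted p = 0.0619) did not pass. In vehicle mice Gfap stood at 1.0 over WT (SE 0.12, adjusted p = 5.68e-05) and 6 of the 19 genes were called higher, beside 2.69% of all genes. Between UA and WT the count of members called was 3 without WT replicate 1, 2 without UA replicate 3, and 0 without any 1 of UA replicates 1, 2, 4 and 5 or of WT replicates 2, 4, 5 and 6. None of 10 general astrocyte markers passed between UA and WT (median 0.25), the water channel gene Aqp4 standing at 0.44 (SE 0.09, adjusted p = 0.0821) and the transcription factor gene Sox9 at 0.32 (adjusted p = 0.404).

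None of 31 lysosome genes passed (median 0.08), but the roles differed. The 9 cathepsin genes had a median of 0.49, the 12 hydrolase genes 0.10 and the 10 membrane and acidification genes -0.10. Ctss, the cathepsin of microglia and antigen-presenting cells, was at 4.41, 4.67 and 4.80 in WT and at 5.01, 5.33 and 5.82 in UA mice. Its groups did not overlap and it differed by 0.73 (SE 0.14, limma adjusted p = 0.0552). Ctsh, another cathepsin gene, differed by 0.64 (SE 0.12, adjusted p = 0.0522) with overlap.

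**Figure D2:**
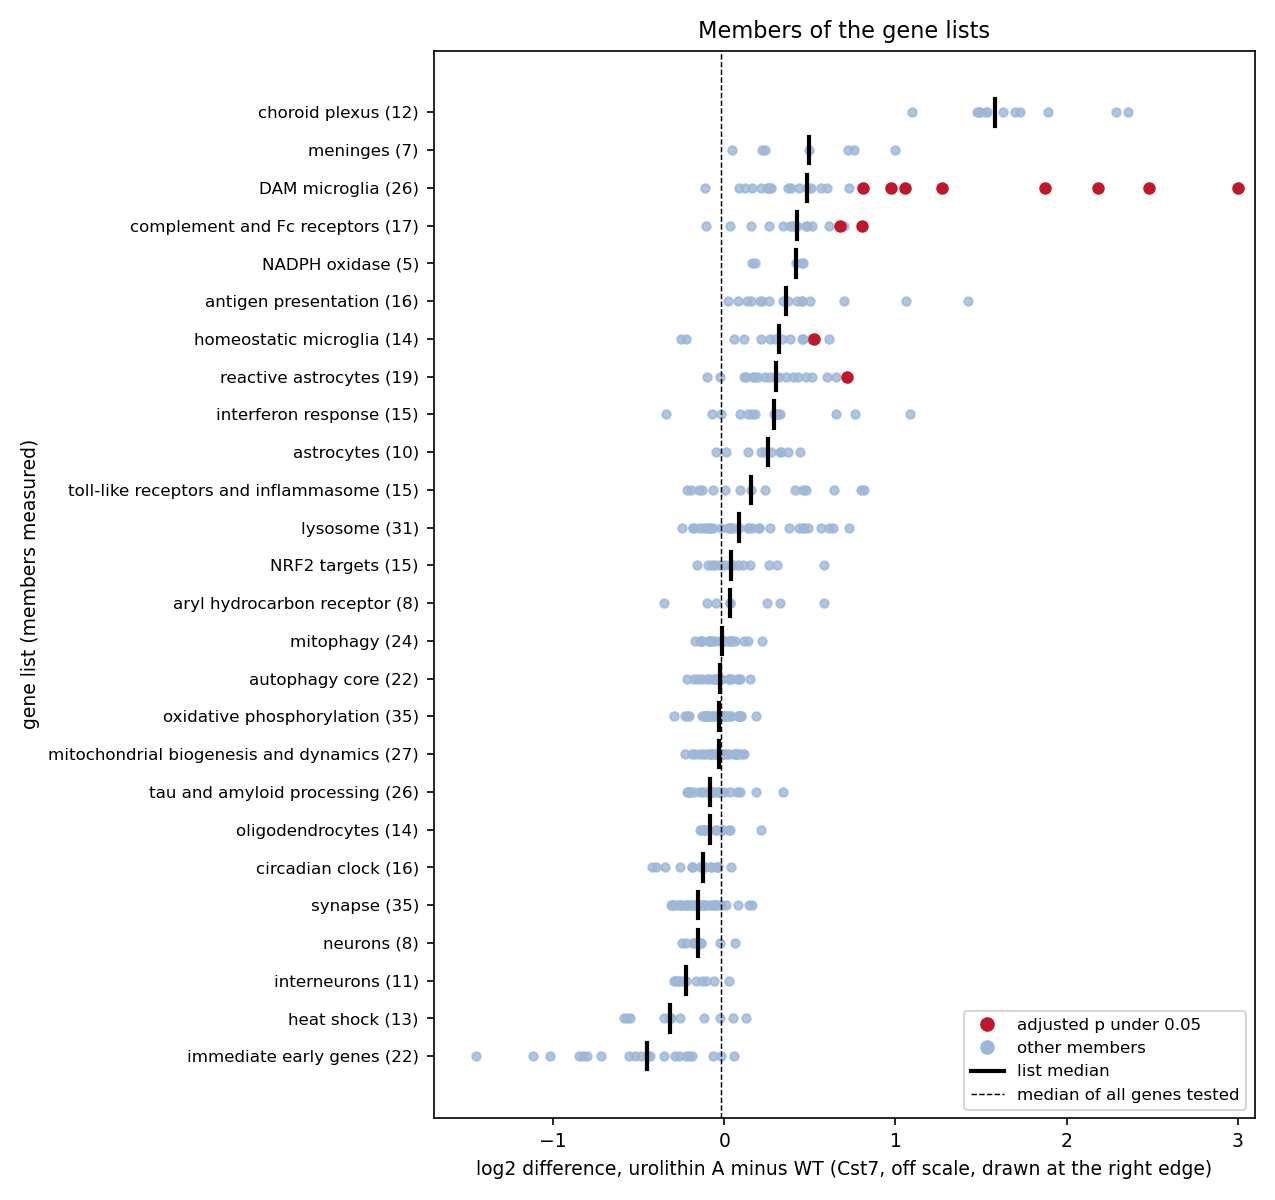
Log2 difference between UA and WT (horizontal axis) for each measured member of 26 gene lists, 1 list per line with its number of members. Red points passed the limma test, black bars are list medians and the dashed line is the median of all genes tested. The 12 red points lie in the 4 lists of DAM microglia, complement and Fc receptors, homeostatic microglia and reactive astrocytes, while choroid plexus genes have the highest median and no red point.

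A single gene was lower in UA than in WT mice, 0.00391% of those tested. Crybb2, which encodes a lens crystallin also found in brain, was at -3.92, -3.66 and -3.38 in WT and at -4.84, -4.37 and -4.05 in UA mice, where 4 of 6 arrays were well above background. It fell by 0.75 on the log2 scale (SE 0.14, limma adjusted p = 0.0426), and vehicle mice stood at -0.44 (SE 0.13, adjusted p = 0.0651). The call held in 9 of 31 alternative settings, and the difference was -0.23 with normexp and -0.34 with slide as a fixed block. The next falls by p did not pass: Ptcd1, a gene of mitochondrial RNA metabolism, at -0.28 (SE 0.06, adjusted p = 0.0587), the splicing-linked gene Acin1 at -0.34 (SE 0.08, adjusted p = 0.0994), Ccdc88c, a Wnt signalling gene, at -0.32 (SE 0.07, adjusted p = 0.112) and the adaptor gene Tepsin at -0.24 (SE 0.06, adjusted p = 0.118). For these 4 genes the vehicle values lay nearer to WT, between -0.12 and 0.00.

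Immediate early genes, induced in neurons by firing, had the lowest list median, -0.45. None of 22 passed, and 21 lay below 0. Fos was at 0.85, 1.59 and 2.18 in WT and at -0.73, 0.09 and 0.98 in UA mice, a difference of -1.45 (SE 0.35, limma adjusted p = 0.147) with overlapping groups. Nr4a1, a nuclear receptor gene of this class, did not overlap (4.11, 4.45 and 4.85 in WT against 3.28, 3.39 and 3.76) and differed by -1.02 (SE 0.29, adjusted p = 0.291). Egr1 differed by -0.85 (SE 0.27, adjusted p = 0.378). The 13 transcription factor genes had a median of -0.52 and the 9 effector genes -0.44. The mean level of the list was 1.59 ± 0.13 on WT arrays (SD, n = 6), 1.07 ± 0.11 on UA arrays (n = 6) and 1.40 ± 0.29 on vehicle arrays (n = 7). Every UA array lay below every WT array on this mean, and vehicle arrays spanned both. The UA median was -0.47 on slide 2 and -0.43 on slide 3.

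The synapse, neuron, interneuron, heat shock and circadian clock lists had medians below 0 and no gene that passed. Of 35 synapse genes 31 lay below 0 (median -0.15), with Grin1, the obligatory NMDA receptor subunit gene, at -0.29 (SE 0.09, limma adjusted p = 0.366). The median of that list was -0.06 in UA arrays of slide 2 and -0.24 in those of slide 3. Neuron markers had a median of -0.16 (8 genes) and interneuron genes -0.22 (11 genes), with the potassium channel gene Kcnc1 at -0.27 (adjusted p = 0.504) and Npy at -0.30 (adjusted p = 0.541). Heat shock genes had a median of -0.32 (13 genes), with the chaperone genes Hsp90ab1 at -0.35 (adjusted p = 0.134) and Hsp90aa1 at -0.32 (adjusted p = 0.313). Of 16 circadian clock genes 15 lay below 0 (median -0.13), with the clock output gene Tef at -0.19 (adjusted p = 0.455) and Per1 at -0.43 (adjusted p = 0.464).

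Mitophagy is the pathway that UA is known for. None of its 24 measured genes passed between UA and WT mice. With 0.0938% of all genes called, a count of 0 in a list of this size does not set the list apart. The median was -0.01 and the members ran from -0.17 to 0.22. Pink1, the kinase gene that marks damaged mitochondria, was at 5.11, 5.28 and 5.38 in WT and at 5.11, 5.29 and 5.39 in UA mice, a difference of 0.01 (SE 0.08, limma adjusted p = 0.992). The smallest p of the list belonged to the autophagy receptor gene Sqstm1 (-0.14, SE 0.07, adjusted p = 0.573) and the outer membrane gene Tomm7 (0.22, SE 0.12, adjusted p = 0.611).

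None of 22 core autophagy genes passed (median -0.03), with the protease gene Atg4b at -0.22 (adjusted p = 0.425) and the initiation gene Atg13 at -0.13 (adjusted p = 0.568). None of 27 genes of mitochondrial biogenesis and dynamics passed (median -0.03), with the matrix protease gene Lonp1 at -0.15 (adjusted p = 0.457) and the chaperone gene Hspd1 at -0.17 (adjusted p = 0.530). Of 35 oxidative phosphorylation genes none passed (median -0.03). The ATP synthase genes Atp5b and Atp5a1 stood at -0.29 (adjusted p = 0.398) and -0.23 (adjusted p = 0.445), and their 9-gene group had a median of -0.10. The aryl hydrocarbon receptor, a sensor of ring-shaped plant and microbial compounds, and the oxidative stress factor NRF2 each had a target list without a gene that passed (medians 0.03 over 8 genes and 0.04 over 15). Nqo1, a quinone reductase gene held by both lists, was at -2.36, -2.16 and -1.24 in WT and at -2.03, -1.37 and -0.74 in UA mice (0.58, SE 0.22, adjusted p = 0.484).

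Of 26 genes of tau and amyloid processing none passed (median -0.08), with the casein kinase gene Csnk1d at -0.20 (SE 0.07, limma adjusted p = 0.445) and the App relative Aplp1 at -0.22 (SE 0.09, adjusted p = 0.502). The 14 secretase and clearance genes and the 12 genes of tau and its kinases had like medians, -0.08 and -0.09. In vehicle mice 4 genes of the list were called lower, beside 2.38% of all genes, a share that fell to 11 of 25599 genes with slide as a fixed block.

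The 12 choroid plexus genes had the largest median difference of any list, 1.58, and none passed. Ttr, the transthyretin gene of that epithelium, was at 2.40, 3.50 and 9.70 in WT and at 0.20, 9.09 and 9.48 in UA mice, so both groups held arrays with very high and with low values (difference 2.29, SE 2.11, limma adjusted p = 0.763). Of 170 genes that differed by more than 2-fold in either direction, 12 were choroid plexus genes and 13 passed the test. The list mean ran from -1.43 to 3.96 on UA arrays and from -1.05 to 3.92 on WT arrays. Its median difference was 0.16 for UA arrays of slide 2 and 3.09 for those of slide 3. Meninges genes had a median of 0.49 over 7 genes with none past the test, and oligodendrocyte genes -0.08 over 14. With the choroid plexus level as a covariate 25 genes passed, 20 of them among the 24, and without the 10 arrays whose choroid plexus level exceeded 2 (4 UA, 1 WT and 5 vehicle arrays) 1 passed, Cst7, at a difference of 5.86.

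**Figure D3:**
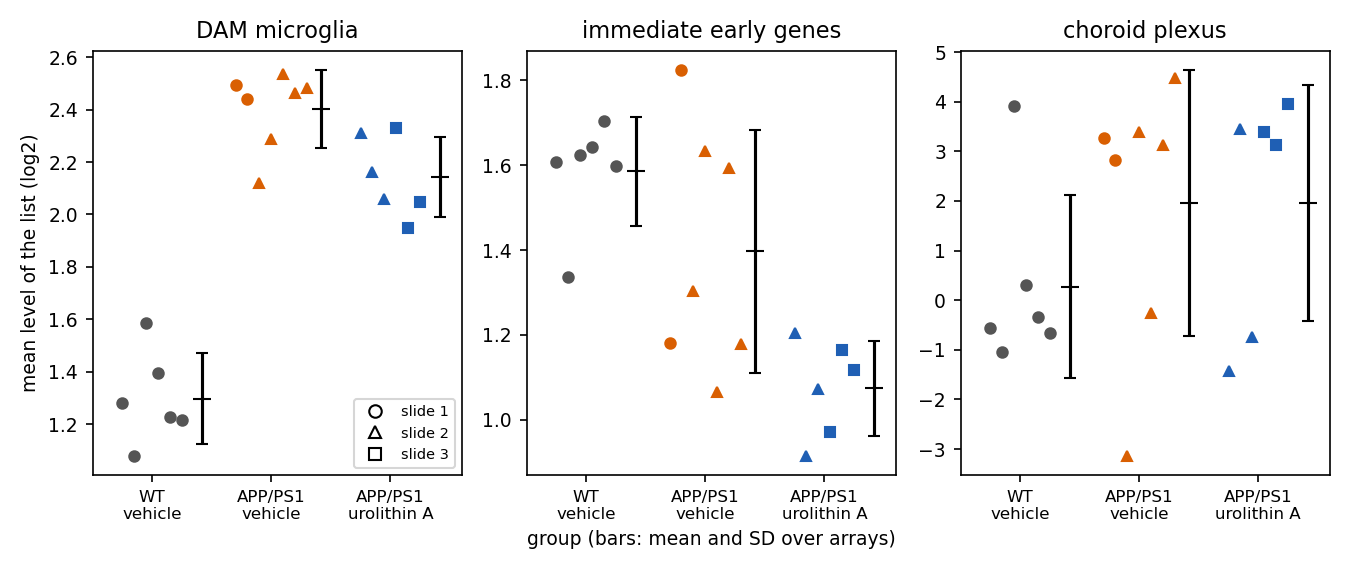
Mean log2 level of the DAM microglia, immediate early and choroid plexus lists on each array (vertical axes differ), by group, with symbols for the slide and bars for the mean and SD over arrays. UA and WT arrays separate for the DAM list (1.95 to 2.33 against 1.08 to 1.58) and for the immediate early list, while choroid plexus values split both groups.

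The 24 genes were set beside the vehicle mice, with the caution that both differences use the same WT arrays. Between vehicle and WT 1298 genes passed (5.07% of those tested), 688 higher (2.69%) and 610 lower (2.38%). The split was 830 higher and 448 lower with the scaling percentile taken over detected probes, and 323 higher and 481 lower in the deposited values. With slide as a fixed block 76 genes passed, and with 1 WT or vehicle array left out the count ran from 389 (WT replicate 6) to 2262 (WT replicate 3). Without the arrays rich in choroid plexus transcripts 19 passed. For all 24 genes the UA mean was below the vehicle mean. The test of that difference is UA against vehicle, in which 0 genes passed by limma (0% of those tested) although 3956 had p under 0.05 before adjustment, with 1280 expected by chance. That count was 0 with sex as a covariate too, 62 with the choroid plexus level as a covariate and 10 without vehicle replicate 4. With normexp it was 1621 (155 higher and 1466 lower), and 986 when vehicle replicate 3, the array with the fewest probes above background, was also left out. With normexp 11 of the 24 genes were called lower in UA than in vehicle mice, among them Cst7 (-0.83, SE 0.17), Itgax (-0.48, SE 0.11), Tyrobp (-0.50, SE 0.12) and Trem2 (-0.46, SE 0.12), at limma adjusted p from 0.0277 to 0.0372 over the 11. Without normexp 20 of the 24 genes had an unadjusted p under 0.05, and their adjusted p ran from 0.0853 to 0.960 over all 24. The lowest belonged to M14215 (-0.50, SE 0.08) and Cd300c2 (-0.49, SE 0.09), both at 0.0853, followed by Cd52 (-0.74, SE 0.15) and Bcl2a1d (-0.63, SE 0.13) at 0.0934. Laptm5 (-0.10, SE 0.10, adjusted p = 0.618) and Prnp were nearest to their vehicle level.

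**Figure D4:**
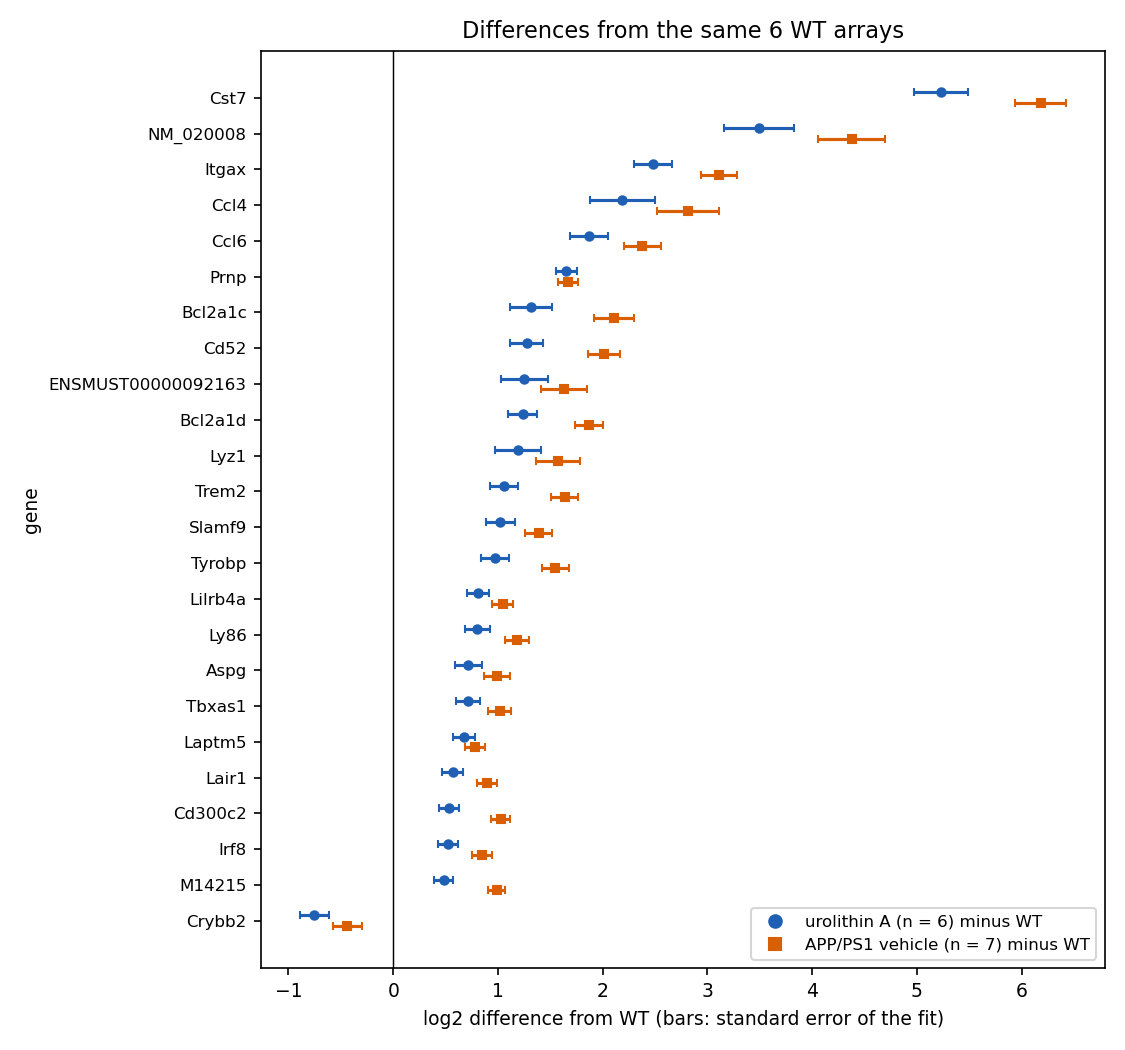
Log2 difference from the 6 WT arrays (horizontal axis) for the 24 called genes, UA (blue circles, n = 6) and vehicle (orange squares, n = 7), with the standard error of the limma fit. Blue lies left of orange on every line, by 0.95 for Cst7 and by least for Prnp.

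Between UA and WT 2260 genes had p under 0.05 before adjustment, with 1280 expected by chance, and 13 of the 24 called genes differed by over 2-fold. UA arrays did not overlap WT arrays for 270 genes (1.05% of those tested), 139 of them higher (0.543%) and 131 lower (0.512%), and all 24 called genes were among these. For 18 of the 24 every UA and WT array was well above background. The rises were seen on both UA slides, and 4 of the 23 were larger on slide 3 than on slide 2. Cst7 differed from WT by 5.46 on slide 2 and 4.99 on slide 3, and Trem2 by 1.16 and 0.96.

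When each UA or WT array was left out in turn, 16 of the 24 genes kept their call in all 12 fits: Cst7, NM_020008, Itgax, Ccl4, Ccl6, Prnp, Bcl2a1c, Cd52, Bcl2a1d, Trem2, Slamf9, Tyrobp, Lilrb4a, Ly86, Tbxas1 and Laptm5. The other 8 each lost it in 6 to 10 fits. Lyz1, Aspg and ENSMUST00000092163 lost it without any single array of UA replicates 1, 2, 4, 5 and 6 or WT replicates 2, 4, 5 and 6, with an adjusted p of up to 0.148, 0.108 and 0.138. Lair1 lost it in 6 fits (UA replicates 2, 3 and 4, WT replicates 2, 5 and 6, adjusted p up to 0.0862). Cd300c2 and M14215 lost it in 8 fits each (UA replicates 1 to 4, WT replicates 2, 4, 5 and 6, adjusted p up to 0.0960 and 0.139) and Irf8 in 8 (UA replicates 1 to 4, WT replicates 2, 3, 4 and 6, up to 0.130). Crybb2 kept its call only without UA replicate 2 or WT replicate 3 (adjusted p up to 0.153 otherwise). Every difference kept its sign in these fits. With slide as a fixed block, where UA and WT are joined only through the vehicle arrays, Cst7, Itgax, Ccl6 and Prnp passed, and in male arrays 9 of the 24 did.

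**Figure D5:**
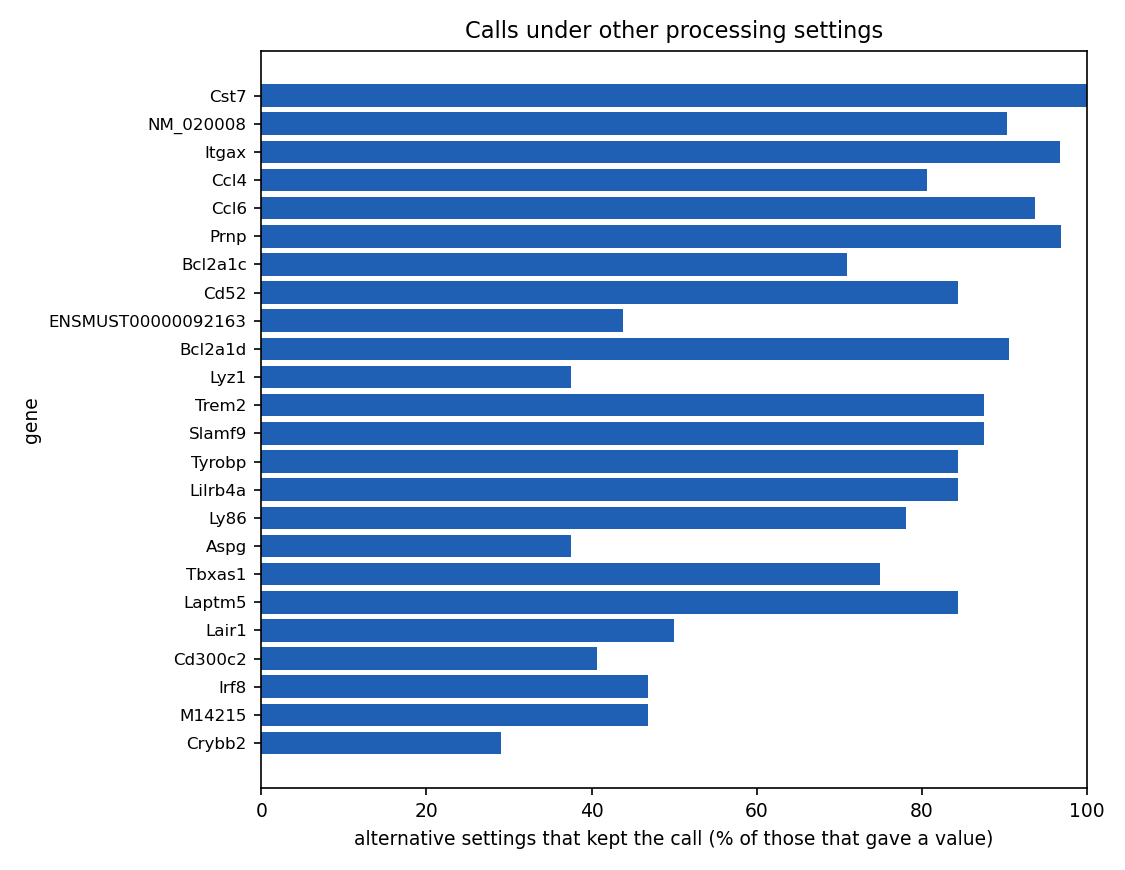
Share of the alternative processing settings in which each of the 24 genes kept its call (horizontal axis, percent of the settings that gave a value). Cst7 kept it in 31 of 31 and Prnp in 31 of 32, while Crybb2, at the bottom, kept it in 9 of 31.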

How the data were processed

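Hippocampal RNA of 19 mice was hybridised to 1 Agilent array each. Labelling with Cy3 started from 200 ng of RNA, per the labels' protocols. Each scanner file gives intensity per spot, extracted with Agilent Feature Extraction 12.0.3.1 under a 2-colour protocol, with background taken off and a dye correction against a red channel whose RNA is undescribed, per the file headers. The values in the deposited table are a score: the log10 green signal standardised within each array, matched to within 0.005 when recomputed. Its column medians ran from -0.28 to -0.17.

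Control spots (3671 of 62976) and non-uniform spots were left out, and spots of a probe were averaged (56605 probes). Levels were log2 signal minus each array's 75th percentile. A probe was kept if well above background on at least 6 arrays (33450 probes). Accessions were named through RefSeq GRCm38.p6, which gave 32994 probes a symbol and left 23611 without one, and the brightest probe stood for a gene (25599 genes, 16103 with a symbol).

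All 19 arrays were fitted in limma 3.58.1 with R 4.3.3 and data.table (version 1.17.8), using lmFit and eBayes, by group alone. Two-sided p-values were adjusted by Benjamini-Hochberg across the whole table, and 0.05 was the limit for a call. Where a gene was below background on some or all WT arrays, its fold sets the UA mean against the WT mean with each array raised to the lowest signal well above background. No set test was run: lists are given by counts and medians. The number of arrays limits the precision, and p-values set a group difference against the spread between these samples. UA and WT share no slide, so their p-values cannot separate group from slide. On simulated data for UA against WT (25487 genes, 50 changed per fold size) the fit recovered 56% of 1.5-fold, 86% of 2-fold and 94% of 3-fold changes, and 6.15% of its calls were false. The simulated noise was independent between genes and arrays, with no slide effect and no shared choroid plexus variation, so these rates do not cover either.

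The comparison, lists and rules were chosen with earlier results of these data known. Named genes were App and Prnp, the 12 largest called rises and all called falls among genes with a plain symbol, the 5 falls of smallest p, the called genes of smallest p against vehicle, and up to 4 called members of a list or 2 of smallest p. Others, among them Gfap, C1qa, C4b, Fcer1g, Cd68, Ctsd, Csf1r, Egr1, Pink1, Ttr, Tbxas1, Lair1 and Lilrb4a, were added after their values were seen. A few list members that these rules name are not reported here. Replicate numbers did not pair the arrays. Alternatives covered normalization, background correction, the deposited table, filters, slide, sex, replicate numbers, probes and leaving out arrays. The red signal entered the levels through the scanner software's dye correction, and was otherwise read for a check alone.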

Additional observations from a re-analysis of the deposited data

Results flagged for a closer look

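Single arrays stood apart in 15 of 150 groups of 6 values checked with Dixon's test at the 95% level, where chance flags about 1 in 20. Of the 15, 14 were WT arrays. WT replicate 3 was apart for Ttr at 9.70 (other WT arrays 2.40 to 4.80), for the mean of the choroid plexus list at 3.92 (others -1.05 to 0.31), for Ctsd at 5.64 (others 4.84 to 5.03), Prnp at 6.70 (others 6.95 to 7.05), Atg4b at 2.75, Nqo1 at -1.24 and Npy at 2.73. Without WT replicate 3 the Prnp difference was 1.61 and 27 genes passed. WT replicate 1 was apart for Ccl6 at -2.24 (others -1.50 to -1.08), Ly86 at 1.69 (others 2.10 to 2.34), App at 7.82 (others 7.09 to 7.33) and Tomm7 at 4.92. WT replicate 2 was apart for Bcl2a1c at -6.43, where no WT array was well above background, for Slamf9 at -2.82 (others -2.42 to -2.22) and for the mean of the immediate early list at 1.34 (others 1.60 to 1.70). UA replicate 5 was apart for Ctsd at 5.26 (other UA arrays 5.61 to 5.83). Ccl6, Ly86, Slamf9, Bcl2a1c and Prnp kept their call without these arrays.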

How the results depend on the processing

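Between UA and WT 24 genes passed. With the percentile over detected probes 24 passed, with quantile normalization 25, with the deposited values 19, with no filter on dim probes 16, with a filter on all 12 arrays 36, with UA and WT arrays alone 17, with sex as a covariate 29, with every probe on its own 35, and with non-uniform spots kept 24. The count was 14 with normexp, 4 with slide as a fixed block, 99 with slide as a random block (estimated correlation -0.04, 24 of the 24 shared), 6 with UA arrays of slide 3 alone, 22 with those of slide 2 alone, and 9 in male arrays. A negative correlation narrows the standard error of a difference between slides, so the 99 calls add no support. Normexp used the median spot signal, since no mean signal column was used here. Of alternatives chosen after seeing the data, the signal before dye normalization gave 21, the choroid plexus level as a covariate 25, leaving out the 10 arrays with a choroid plexus level above 2 (4 UA, 1 WT, 5 vehicle) 1, and leaving out the vehicle array with the fewest probes above background 28. Leaving out 1 UA or WT array at a time gave 16 to 35. The replicate block gave 3 calls, Cst7, Itgax and Prnp. Same-numbered arrays correlated between -0.545 and 0.149, 2 of 6 pairs over 0.1, and 0 of 6 correlated best with their own number, so the numbers were not taken as pairs. Vehicle against WT gave 1298 genes, 804 with the deposited values and 76 with slide as a fixed block. Its other alternatives, and all of those below for UA against vehicle beyond the percentile, quantile, deposited and fixed-block settings, were chosen after seeing the data. Vehicle against WT gave 353 with no filter, 2254 with slide as a random block, 1966 with sex as a covariate, 245 in male arrays, 619 before dye normalization, 19 without arrays rich in choroid plexus, 2312 with normexp and without vehicle replicate 3, and 389 to 2262 with 1 WT or vehicle array left out (over 1.5 times away without WT replicates 2 to 6 or vehicle replicates 1, 2, 5, 6 or 7). UA against vehicle gave 0, but 1621 with normexp, 986 with normexp and without vehicle replicate 3, 62 with the choroid plexus covariate, and 0 to 10 with 1 UA or vehicle array left out (10 without vehicle replicate 4). No called gene changed sign in any alternative. Uncalled genes that did were Sqstm1 (0.0024 with slide as a fixed block, 0.014 without arrays rich in choroid plexus), Pink1 (-0.017 with slide as a random block, -0.051 on slide 3, -0.023 in male arrays, -0.025 to 0.036 with an array left out) and Ttr (-0.25 on slide 2, -0.48 with the choroid covariate, -1.77 without the arrays rich in it). The causes of these shifts were not tested. Signal near background limits Cst7, Itgax, Ccl4, Bcl2a1c, Crybb2 and NM_020008, whose size depends on the background correction.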
